A study of Mus musculus with 29 samples.

Results

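The genes followed here are 10 transcription factors of granulocyte-monocyte fate: the C/EBP family members Cebpa, Cebpb, Cebpd, Cebpe and Cebpg, and the partner factors Spi1 (which encodes PU.1), Irf8, Gfi1, Runx1 and Klf4. They were found by matching the Ensembl identifiers of the deposited gene table to these symbols, and all 10 were present among its 38924 genes. Their messages were measured by polyA RNA sequencing in 29 libraries of stem and progenitor cells from the bone marrow of C57BL/6 mice. The populations were long-term (LT-HSC) and short-term (ST-HSC) haematopoietic stem cells and the multipotent progenitors MPP3 and MPP4. Controls gave 4 libraries of LT-HSC, 3 of ST-HSC, 3 of MPP3 and 4 of MPP4. Dnmt3a-mutant mice gave 3 of LT-HSC and 4 of each other population. All mice, controls included, were young animals that had received pIpC, a synthetic RNA that induces interferon, 6 weeks before sampling. The mutant allele, any Cre driver, the control genotype, the number of mice behind each library and the sorting gates are not stated in the labels. Because nothing says that libraries of a group came from separate animals, p-values measure the spread between these libraries, which may be partly technical.

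C/EBP proteins are basic leucine zipper factors that bind DNA as dimers. C/EBPα opens the granulocyte-monocyte programme in progenitors, C/EBPε acts late in granulocytes, C/EBPβ and C/EBPδ respond to inflammatory and stress signals, and C/EBPγ lacks a strong activation domain and dimerises with the others. PU.1 is needed for myeloid and B cell development, and IRF8 steers progenitors to monocytes and dendritic cells. GFI1 is a transcriptional repressor that acts in granulocyte development, and RUNX1 is a core factor of all definitive blood cells. KLF4 is a zinc finger factor of monocytes that also restrains stem cell proliferation. Dnmt3a is a DNA methyltransferase that adds methyl groups at CpG sites and is often mutated in clonal blood disorders.

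The promoter table used here (RefSeq, GRCm38.p6) held 7 of the 10 genes. Cebpd, Cebpe and Spi1 are not among them. Of the 10 windows of these genes, 4 are printed, each the 250 bases before an annotated start, read 5′ to 3′ along the gene. Cebpa, Irf8 and Gfi1 are shown because they had called differences between populations, and Cebpg because it lies near Cebpa and had none. Cebpg and Cebpa lie 62.7 kb apart on chromosome 7, on opposite strands, with the annotated genes Gm22535 and Gm25033 between them. Capitals mark matches to 4 motifs searched on both strands. The C/EBP motif was TTGCNNAA, where N is any base. The PU.1 motif was AGGAAGT. The RUNX motif was TGTGGT, and the TATA box was written as TATAAA.
Cebpa, chr7:35119043-35119292, plus strand: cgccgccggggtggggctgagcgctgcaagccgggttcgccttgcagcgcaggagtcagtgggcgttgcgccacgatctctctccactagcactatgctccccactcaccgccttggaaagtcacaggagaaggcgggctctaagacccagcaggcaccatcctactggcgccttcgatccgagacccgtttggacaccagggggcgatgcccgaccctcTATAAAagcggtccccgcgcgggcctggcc
Irf8, chr8:120736108-120736357, plus strand: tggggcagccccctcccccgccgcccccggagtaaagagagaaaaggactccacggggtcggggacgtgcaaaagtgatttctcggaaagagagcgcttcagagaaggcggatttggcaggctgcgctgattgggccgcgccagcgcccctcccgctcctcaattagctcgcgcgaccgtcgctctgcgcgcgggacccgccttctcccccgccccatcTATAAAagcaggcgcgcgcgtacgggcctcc
Gfi1, chr5:107725806-107726055, minus strand: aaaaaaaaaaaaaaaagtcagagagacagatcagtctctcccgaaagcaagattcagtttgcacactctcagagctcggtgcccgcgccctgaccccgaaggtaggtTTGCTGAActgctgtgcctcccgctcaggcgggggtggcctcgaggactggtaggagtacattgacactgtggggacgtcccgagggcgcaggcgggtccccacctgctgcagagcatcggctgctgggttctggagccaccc
Cebpg, chr7:35056567-35056816, minus strand: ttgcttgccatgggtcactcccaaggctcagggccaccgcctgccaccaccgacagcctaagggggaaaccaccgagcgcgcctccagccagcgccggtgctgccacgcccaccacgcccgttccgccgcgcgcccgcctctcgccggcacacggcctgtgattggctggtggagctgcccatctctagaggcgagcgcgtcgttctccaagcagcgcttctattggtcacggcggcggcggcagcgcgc
The windows of Cebpa and Irf8 each held 1 match to TATAAA, which began 30 and 31 bases before the start. TATAAA was found in 12.4% of all 32851 windows of that length. The Gfi1 window held 1 match to TTGCNNAA, a motif found in 9.56% of windows. The Cebpg window held no match to any of the 4 motifs, and the PU.1 and RUNX motifs, found in 7.69% and 14% of windows, were in none of the 4 printed. CpG pairs numbered 22 in the Cebpa window, 29 in that of Irf8, 13 in that of Gfi1 and 29 in that of Cebpg, against a median of 6 over all windows. These are descriptions of the letters, and no methylation or binding was measured in these libraries.

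Library totals ran from 6133994 to 10374672 estimated counts, and CPM values are these counts over each library's normalised (TMM) size. On that scale the limit a count of 0 allows (3 counts in a library) was 0.29 to 0.557 CPM. Dnmt3a message ran from 81.7 to 166 CPM over the 14 control and from 92.3 to 220 CPM over the 15 mutant libraries, and with the allele not given this level does not check the labels. Defining markers of the MPP populations followed the names: Flt3, which marks MPP4, was 381 to 460 CPM in MPP4 libraries and at most 207 CPM elsewhere, and 5 MPP3 markers summed to 3930 to 10100 CPM in MPP3 libraries and at most 1180 CPM elsewhere. The summed level of 8 LT-HSC markers did not separate LT-HSC from ST-HSC. It was 736 to 1200 CPM in control LT-HSC and 914 to 1510 CPM in control ST-HSC. In the mutant groups it was 1180 to 1420 CPM and 1030 to 1860 CPM, and in control MPP4 848 to 922 CPM. A sum is carried by its most abundant markers, and the values of Slamf1, 1 of the 8, are given below. Some libraries stood apart. In control LT-HSC replicates 1, 2 and 3 the neutrophil gene S100a8 was 2250, 582 and 348 CPM, against 3.66 CPM in replicate 4 and 5.83 to 67.5 CPM in the mutant LT-HSC libraries. Control ST-HSC replicate 1 had the plasmacytoid dendritic cell gene Siglech at 137 CPM, against 1.81 and 3.02 CPM in the other replicates. Mutant ST-HSC replicate 2 had Slamf1, which encodes the LT-HSC surface marker CD150, at 401 CPM, against 0.776 to 1.83 CPM in the other mutant ST-HSC and 14.1 to 54.1 CPM in the LT-HSC libraries. In the MPP3 libraries 9 markers of B and antibody-secreting cells summed to 1040 to 14900 CPM, against 20.4 to 57.7 CPM in MPP4. The MPP3 markers include Mpo, Prtn3, Ctsg and Fcgr3, which are also among the targets described below. In such bulk samples fewer cells of a type and less RNA per cell cannot be told apart.

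**Figure D1:**
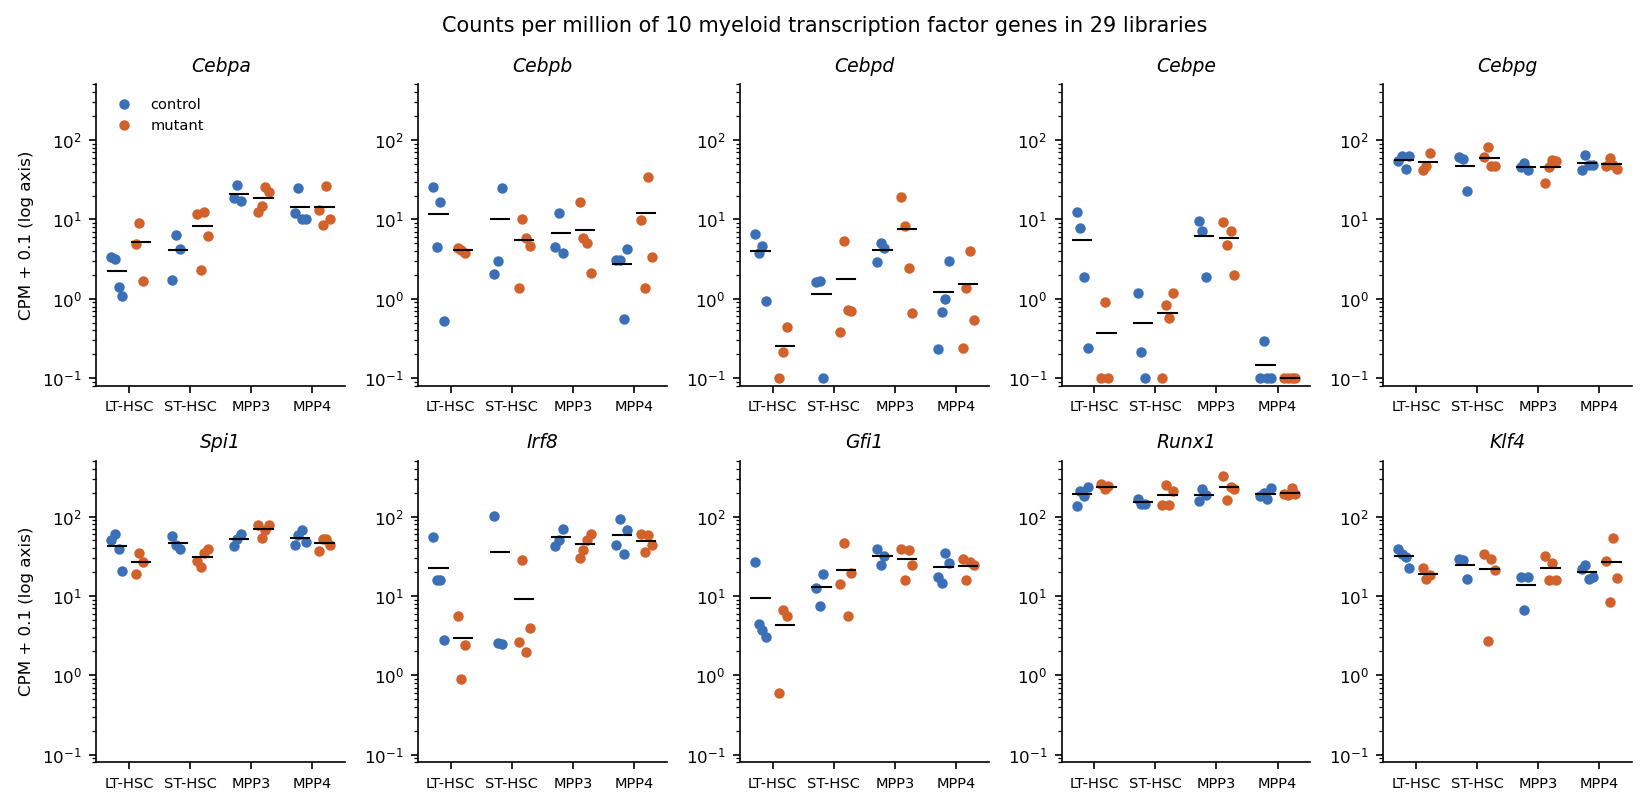
CPM plus 0.1 (log axis) of the 10 genes by population, with 1 point per library, blue for control and orange for mutant, and a bar at each group mean. Cebpa sits lowest in LT-HSC and highest in MPP3, Cebpe drops to the bottom of the axis in MPP4, and Cebpg and Runx1 stay within a narrow band.

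Cebpa, the factor that opens the granulocyte-monocyte programme, was lowest in LT-HSC and highest in MPP3. Its level in the control LT-HSC libraries was 3.28, 3.08, 1.29 and 0.986 CPM. Control ST-HSC libraries had 1.64, 6.32 and 4.13 CPM, control MPP3 libraries 18.6, 26.8 and 17 CPM, and control MPP4 libraries 11.9, 24.8, 10 and 10.1 CPM. Every control MPP3 and MPP4 library therefore lay above every control LT-HSC and ST-HSC library. Cebpa was 9.63-fold higher in control MPP3 than in control LT-HSC (log2 difference 3.27, SE 0.545, adjusted p = 0.00523, edgeR). It was the single member called of 10 in this comparison, in which 1.39% of all 14937 genes tested were called. Here and below, called means an adjusted p under 0.05 in edgeR's quasi-likelihood test, adjusted over all genes tested. Between control MPP4 and control LT-HSC Cebpa was 6.55-fold higher (log2 difference 2.71, SE 0.518, adjusted p = 0.00522, edgeR), and with Cebpe it made 2 members called of 10, against 4.51% of all genes. Between control MPP3 and control ST-HSC it was 5.12-fold higher (log2 difference 2.36, SE 0.581, adjusted p = 0.0472, edgeR), again as 1 member of 10, against 1.75% of all genes.

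The Cebpa differences from LT-HSC were in the same direction within both sets of libraries that share a prefix in their column headers, at 2.46 and 3.97 (log2) for MPP3 and 2.35 and 2.90 for MPP4. Without the 3 control LT-HSC libraries high in S100a8 they were larger, at 4.37 and 3.81, but with 1 LT-HSC library left they were no longer called (adjusted p = 0.075 and 0.128). The call against ST-HSC was lost when any 1 of the 6 libraries was left out (adjusted p = 0.0662 to 0.146), with log2 differences of 1.99 to 2.87. It was also lost in a fit of all 29 libraries (adjusted p = 0.0586). Between control MPP4 and control MPP3 Cebpa differed by −0.56 (log2, SE 0.507, adjusted p = 0.798), and the groups overlapped.

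In mutant libraries Cebpa was less evenly spread. Mutant LT-HSC had 4.81, 8.90 and 1.60 CPM, and mutant ST-HSC 11.7, 2.23, 12.4 and 6.13 CPM. Mutant MPP3 had 12.3, 14.7, 25.7 and 21.8 CPM, and mutant MPP4 13.0, 8.29, 26.2 and 10.1 CPM. Mutant MPP3 lay above mutant LT-HSC in every library, and the log2 difference of 1.84 (SE 0.642, adjusted p = 0.157) was not called. That the difference passed in controls and not in mutants does not show that the genotypes differed: the test of whether the mutant effect on Cebpa differed between populations gave an adjusted p of 0.971 in edgeR.

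Cebpe, the late granulocyte factor, had the steepest pattern among the populations. Control LT-HSC libraries had 12.4, 7.59, 1.76 and 0.141 CPM, in the order of their S100a8 levels. Control ST-HSC had 1.09, 0.113 and 0 CPM, control MPP3 9.38, 7.05 and 1.80 CPM, and control MPP4 0, 0.193, 0 and 0 CPM. Mutant MPP3 libraries had 9.17, 4.62, 7.12 and 1.91 CPM, and all 4 mutant MPP4 libraries were at 0. Every MPP3 library of both genotypes thus exceeded every MPP4 library.

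In mutant MPP4 the limit of 3 counts per library averaged 0.374 CPM, so Cebpe was at least 15.2-fold lower than the mutant MPP3 mean of 5.70 CPM (adjusted p = 0.0242, edgeR). It was the member called of 10 in this comparison, in which 1.44% of all genes were called. The call was lost without mutant MPP3 replicate 3 (adjusted p = 0.0549) and without any 1 of the mutant MPP4 replicates 1 to 4 (adjusted p = 0.0652 to 0.0701). In control MPP4 the 4 libraries held 2 counts in all against 137 in control MPP3, a ratio of 0.0102 per unit of depth (95% exact interval from counting error alone 0.00122 to 0.0376, adjusted p = 0.0356, edgeR). Cebpe was again the 1 member called of 10, against 1.44% of all genes. This call was lost without control MPP3 replicate 1 or 2, without any 1 control MPP4 library (adjusted p = 0.071 to 0.128 over these 6), and in limma-voom (adjusted p = 0.181).

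Against control LT-HSC, whose 4 libraries held 167 counts, control MPP4 had a Cebpe ratio of 0.0108 (interval 0.0013 to 0.0397, adjusted p = 0.0166, edgeR). The groups overlapped, since control LT-HSC replicate 4 held 0.141 CPM. Without the 3 LT-HSC libraries high in S100a8 the fitted log2 difference went from −6.26 to −1.17 (adjusted p = 0.967). It was also not called in limma-voom (adjusted p = 0.189) or without control MPP4 replicate 1, 3 or 4 (adjusted p = 0.053 to 0.0631). The summed level of 15 neutrophil markers ran from 111 to 12800 CPM in control LT-HSC and from 83.7 to 227 CPM in control MPP4.

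Cebpd and Cebpb, the factors tied to inflammatory signals, varied widely between libraries of the same group. Cebpd had the lowest level per length of the 10 genes. It reached 18.9, 8.14, 2.37 and 0.561 CPM in mutant MPP3 and 2.85, 4.98 and 4.23 CPM in control MPP3. The control ST-HSC libraries had 1.53, 1.58 and 0 CPM and the control MPP4 libraries 0.136 to 2.89 CPM. Mutant MPP3 exceeded mutant LT-HSC (0, 0.116 and 0.343 CPM) in every library, and the fitted difference just missed the threshold (adjusted p = 0.0747, edgeR). It passed in DESeq2 (adjusted p = 0.00213), without a filter on low counts (adjusted p = 0.0456) and in the fit of all libraries (adjusted p = 0.039). Cebpd overlaps Spidr on the opposite strand and Cebpb overlaps Tmem189 likewise. These are overlaps of whole gene spans, and whether the exons share bases was not examined. No label states whether the counting used strand, so how far these pairs share reads is not known.

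Cebpb ran from 0.422 to 33.9 CPM over the 29 libraries, and both ends lay in groups with wide spread. Control LT-HSC libraries had 25.4, 4.39, 16.4 and 0.422 CPM, whereas the mutant LT-HSC libraries lay close together at 4.21, 4.05 and 3.66 CPM. Control ST-HSC libraries had 1.96, 2.93 and 24.8 CPM, and mutant MPP4 libraries 9.74, 1.26, 33.9 and 3.26 CPM. No comparison of populations called Cebpb. The coefficient of variation within groups reached 130% in control ST-HSC and 125% in mutant MPP4, and was 7.13% in mutant LT-HSC.

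Cebpg, the dimer partner encoded near Cebpa, had group means closer together than any other member. Its group means ran from 46.2 CPM in MPP3 of both genotypes (SD 4.16, n = 3 and SD 12.6, n = 4) to 59.0 CPM in mutant ST-HSC (SD 16.9, n = 4). Single libraries lay between 22.4 and 82.4 CPM. The largest group mean was 1.28 times the smallest, while the control ST-HSC libraries alone had 61.8, 57.1 and 22.4 CPM. Cebpa had group means that differed 9.63-fold. Cebpg was called in none of the 12 comparisons of populations, and its groups overlapped in each of them.

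Spi1, which encodes PU.1, was present at 18.6 CPM or more in every library and was called in 2 comparisons of mutant populations. Mutant LT-HSC libraries had 18.6, 34.3 and 26.5 CPM, and mutant ST-HSC libraries 27.3, 22.8, 34.2 and 39.4 CPM. Mutant MPP3 libraries had 77.2, 53.1, 67.7 and 78.6 CPM, above every mutant LT-HSC and ST-HSC library. Spi1 was 2.58-fold higher in mutant MPP3 than in mutant LT-HSC (log2 difference 1.37, SE 0.289, adjusted p = 0.0116, edgeR). In that comparison 3 members of 10 were called, Spi1, Gfi1 and Irf8, all higher in MPP3, against 2.95% of all 14766 genes tested. Against mutant ST-HSC Spi1 was 2.21-fold higher (log2 difference 1.15, SE 0.261, adjusted p = 0.0161, edgeR), the 1 member called of 10, against 4.27% of all genes. Every alternative that was run kept the second call, including the one without mutant ST-HSC replicate 2 (adjusted p = 0.0383). The first was lost without mutant LT-HSC replicate 1 (adjusted p = 0.0925) or 3 (adjusted p = 0.0703).

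In controls Spi1 differed less between populations. The libraries had 50.1, 59.6, 38.4 and 20.6 CPM in LT-HSC, 57.0, 43.5 and 38.8 CPM in ST-HSC, 41.9, 51.3 and 60.8 CPM in MPP3, and 43.3, 58.5, 67.0 and 48.3 CPM in MPP4. All 4 control groups overlapped, and the largest log2 difference among them was 0.36 (MPP4 against LT-HSC, SE 0.276, adjusted p = 0.606). The lowest control LT-HSC library was replicate 4, the one low in S100a8. The mutant effect on Spi1 was not called as different between populations (unadjusted p = 0.0458, adjusted p = 0.827, edgeR, over 15915 genes). In the mutant MPP3 libraries, where Spi1 was highest, 9 markers of B and antibody-secreting cells summed to 1410 to 14900 CPM, against 16.5 to 120 CPM in mutant LT-HSC. PU.1 is also a factor of B cells, and 12 markers of monocytes and macrophages summed to 248 to 449 CPM against 26.5 to 31.9 CPM. The part of such cells in the difference was not tested.

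Irf8, the monocyte and dendritic cell factor, was low in mutant LT-HSC and high in both MPP populations. Mutant LT-HSC libraries had 5.42, 0.809 and 2.29 CPM. Mutant MPP3 libraries had 29.9, 37.5, 49.9 and 60.4 CPM and mutant MPP4 libraries 60.0, 35.8, 58.8 and 43.5 CPM, with no overlap. The gene was 15.3-fold higher in mutant MPP3 (log2 difference 3.94, SE 0.821, adjusted p = 0.0109, edgeR) and 17.3-fold higher in mutant MPP4 (log2 difference 4.11, SE 0.828, adjusted p = 0.0091, edgeR) than in mutant LT-HSC. The same 12 monocyte and macrophage markers summed to 37.1 to 75.5 CPM in mutant MPP4. In the second comparison Irf8 was the 1 member called of 10, against 2.18% of all genes. Leaving out mutant LT-HSC replicate 2 or 3 raised the adjusted p to 0.0708 and 0.082 for MPP3 and to 0.063 and 0.074 for MPP4. Within the sets of libraries sharing a header prefix the log2 differences were 4.44 and 3.78 for MPP3 and 4.2 and 4.37 for MPP4.

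The ST-HSC groups each held 1 library high in Irf8. Control ST-HSC libraries had 102, 2.48 and 2.38 CPM, and mutant ST-HSC libraries 2.54, 28.2, 1.86 and 3.85 CPM. The high control library was the one with Siglech at 137 CPM, and its 9 dendritic cell markers summed to 688 CPM against 218 and 231 CPM in the other replicates. Its 9 B and antibody-secreting markers summed to 1790 CPM against 10.7 and 90.2 CPM, and its 12 monocyte and macrophage markers to 147 CPM against 53.6 and 70.9 CPM. The high mutant library was the one with Slamf1 at 401 CPM, which was at an end of the mutant ST-HSC range for 9 of the 10 members. It was the highest for 6, Irf8, Cebpb (10 CPM), Cebpd (5.20 CPM), Cebpg (82.4 CPM), Gfi1 (46.6 CPM) and Runx1 (251 CPM), and the lowest for 3, Cebpa (2.23 CPM), Spi1 (22.8 CPM) and Klf4 (2.60 CPM). Its dendritic markers summed to 204 CPM, within the 181 to 214 CPM of that group. The part of these cells or libraries in the Irf8 level was not tested.

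Both these libraries and the choice of test changed the calls for Irf8 against ST-HSC. Between mutant MPP3 and mutant ST-HSC its log2 difference was 2.29 (adjusted p = 0.061) with all libraries and 4.00 (adjusted p = 0.000393) without mutant ST-HSC replicate 2. Between mutant MPP4 and mutant ST-HSC it was 2.47 (adjusted p = 0.0667) and 4.16 (adjusted p = 0.000282). With replicate 2 kept, the first of these was called by DESeq2 (adjusted p = 0.0429), by limma-voom (adjusted p = 0.00316), without a filter on low counts (adjusted p = 0.0199) and with the header prefix as a covariate (adjusted p = 0.0445). The second was called under the same 4 alternatives (adjusted p = 0.00253 to 0.043). With all libraries edgeR called 0 members of 10 in the second of these, against 2.24% of all genes, and 3 members had an unadjusted p under 0.05, while DESeq2 and limma-voom each called 1. In controls the corresponding values were 0.60 (adjusted p = 0.827) and 4.48 (adjusted p = 0.0221) for MPP3, and 0.71 (adjusted p = 0.789) and 4.58 (adjusted p = 0.0185) for MPP4, with and without control ST-HSC replicate 1. Between control MPP4 and control ST-HSC 0 members were called of 10 with all libraries, against 1.49% of all genes, 1 member (Cebpa) had an unadjusted p under 0.05, DESeq2 called 1 and limma-voom 0.

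Control LT-HSC libraries held 55.2, 15.8, 15.6 and 2.68 CPM of Irf8, and the lowest was again replicate 4. Control MPP3 had 42.7, 50.6 and 70.5 CPM and control MPP4 43.4, 92.4, 33.4 and 66.6 CPM. The log2 differences from LT-HSC were 1.31 and 1.41 (adjusted p = 0.617 and 0.506) and the groups overlapped. Irf8 overlaps Gm20388 on the same strand, so that reads of both models could be split between them.

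Gfi1, the repressor that acts in granulocyte development, had its lowest mean in LT-HSC and its highest in MPP3 in both genotypes. Mutant LT-HSC libraries had 0.501, 6.47 and 5.49 CPM and mutant MPP3 libraries 39.2, 15.8, 37.4 and 24.7 CPM. The groups did not overlap, and Gfi1 was 6.95-fold higher in mutant MPP3 (log2 difference 2.80, SE 0.718, adjusted p = 0.0396, edgeR). The call was lost without any 1 of the 3 mutant LT-HSC libraries (adjusted p = 0.0785 to 0.128) or of mutant MPP3 replicates 1, 3 and 4 (adjusted p = 0.0515 to 0.0843). Mutant MPP4 libraries had 29.2, 15.7, 26.9 and 24.1 CPM, also above every mutant LT-HSC library (log2 difference 2.52, adjusted p = 0.0797), and DESeq2 called this difference (adjusted p = 0.00351).

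In controls, LT-HSC libraries had 26.3, 4.39, 3.64 and 2.96 CPM of Gfi1, MPP3 libraries 39.0, 24.3 and 32.1 CPM, and MPP4 libraries 17.3, 14.6, 34.5 and 26.1 CPM. The high LT-HSC library was replicate 1, the one with the most S100a8. The log2 difference of MPP3 from LT-HSC was 1.79 (SE 0.606, adjusted p = 0.18) with all libraries and 3.10 (adjusted p = 0.00155) without that library. For MPP4 it was 1.32 (adjusted p = 0.259) and 2.64 (adjusted p = 0.00205). ST-HSC libraries had 12.3, 7.45 and 18.7 CPM in controls and 14.1, 46.6, 5.44 and 19.4 CPM in mutants. Their means of 12.8 and 21.4 CPM lay between those of LT-HSC and the MPP groups, and the libraries overlapped with both LT-HSC groups. Gfi1 overlaps A430072P03Rik on the opposite strand.

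Comparing ST-HSC with LT-HSC called 0 of the 10 members in either genotype. In controls 0.1% of 14937 genes were called, and 1 member, Cebpe, had an unadjusted p under 0.05 (log2 difference −3.63, adjusted p = 0.306). Neither DESeq2 nor limma-voom called a member there. In mutants 0.278% of 14766 genes were called, and Gfi1, Irf8 and Cebpd had unadjusted p under 0.05 (log2 differences 2.35, 1.65 and 3.32). DESeq2 called 1 of these, Gfi1 (adjusted p = 0.0226), and limma-voom 0. Without mutant ST-HSC replicate 2 the Irf8 difference was −0.06.

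Runx1, the core blood factor, was present at 136 CPM or more in every library. It was 136, 207, 182 and 234 CPM in control LT-HSC, 166, 143 and 143 CPM in control ST-HSC, and 155, 222 and 184 CPM in control MPP3. The mutant LT-HSC libraries had 254, 219 and 239 CPM and the mutant MPP3 libraries 327, 159, 234 and 223 CPM. The highest group mean, 238 ± 17.7 CPM (SD, n = 3) in mutant LT-HSC, was 1.58 times the lowest, 151 ± 13.4 CPM (SD, n = 3) in control ST-HSC. No comparison called it. Its means were higher in mutant than in control cells in all 4 populations, by 0.04 to 0.34 (log2), and the mean of the 4 differences was 0.25 (SE 0.112, adjusted p = 0.613, edgeR).

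Klf4, the monocyte factor that restrains stem cell proliferation, had its highest control levels in LT-HSC. Control LT-HSC libraries had 39.1, 33.6, 30.5 and 22.3 CPM and control MPP3 libraries 17.1, 6.50 and 17.2 CPM, without overlap. The log2 difference of −1.19 (SE 0.36, adjusted p = 0.125) was not called by edgeR and was called by DESeq2 (adjusted p = 0.0336). Without the 3 libraries high in S100a8 it was −0.71. In mutants no such gap was seen: LT-HSC libraries had 22.6, 16.2 and 18 CPM and MPP3 libraries 31.5, 15.7, 25.7 and 15.6 CPM. The single lowest Klf4 value, 2.60 CPM, was in mutant ST-HSC replicate 2.

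**Figure D2:**
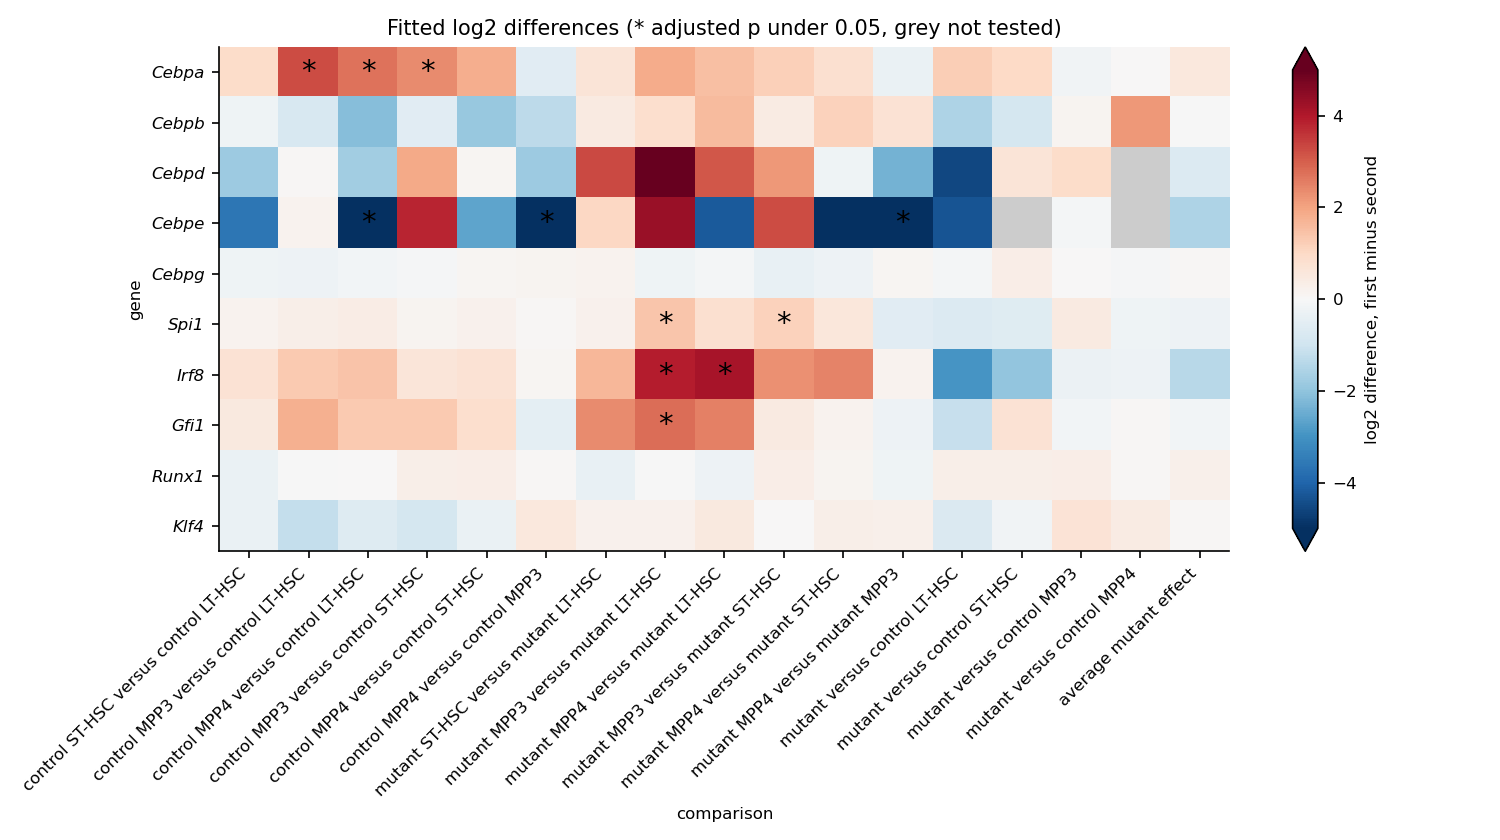
Fitted log2 differences of the 10 genes (rows) in 17 comparisons (columns), first group minus second, with the colour scale ending at 5 in either direction, grey where the gene was not tested and a star where it was called. Stars for Cebpa fall in the 3 control comparisons named above, those for Irf8, Spi1 and Gfi1 in comparisons of mutant populations, and none in the columns of mutant against control.

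EdgeR called none of the members between mutant and control cells of any population. In LT-HSC 0 of 10 were called, and edgeR called 0 genes of 13922 (0% of genes), with 1185 at an unadjusted p under 0.05. DESeq2 called 292 genes there and 2 of them were members. Limma-voom called 0 genes. In ST-HSC 0 of the 9 members tested were called and 0% of genes, with 493 genes at an unadjusted p under 0.05 and 0 called by DESeq2 or limma-voom. In MPP3 0 of 10 were called and 0% of genes (302 genes under 0.05 unadjusted, 2 called by DESeq2), and in MPP4 0 of 8 and 0% (413 genes under 0.05 unadjusted, 5 called by DESeq2). The mean of the 4 mutant differences called 0.0251% of 15915 genes and 0 of 10 members, of which 2 had an unadjusted p under 0.05. DESeq2 and limma-voom also called no member in these comparisons except for those of LT-HSC by DESeq2. The test that the 4 differences were unequal called 0% of genes and 0 of 10 members, with 946 genes at an unadjusted p under 0.05 and 44 called by DESeq2. Of the members 2, Spi1 and Cebpd, had an unadjusted p under 0.05 in edgeR, against 5.94% of all genes.

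The members with the largest mutant differences were those of LT-HSC. Cebpd was 6.42, 3.68, 4.46 and 0.845 CPM in control LT-HSC and 0, 0.116 and 0.343 CPM in mutant LT-HSC, so the groups did not overlap. The 4 control libraries held 120 counts and the 3 mutant libraries 4, a ratio of 0.0378 per unit of depth (95% exact interval from counting error alone 0.0101 to 0.0995). The fitted log2 difference was −4.57 (SE 1.10, adjusted p = 0.197, edgeR). Irf8 (log2 difference −2.96, adjusted p = 0.28), Cebpe (−4.31, adjusted p = 0.386) and Klf4 (−0.74, adjusted p = 0.457) also had unadjusted p under 0.05. Cebpa went the other way, at 5.11 ± 3.66 CPM (SD, n = 3) in mutant and 2.16 ± 1.19 CPM (SD, n = 4) in control LT-HSC (log2 difference 1.22, adjusted p = 0.71, edgeR). DESeq2 called Cebpd (adjusted p = 0.00655) and Cebpe (adjusted p = 0.0348).

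Markers of several mature cell types moved with these differences. In control LT-HSC, Cebpa, Cebpb, Cebpd, Cebpe, Irf8, Gfi1 and Klf4 were each highest in replicate 1, which had the most S100a8. Each of them was lowest in replicate 4, the library low in S100a8, and Spi1 was also lowest there. The 15 neutrophil markers, all detected in both groups, summed to 111 to 12800 CPM in control and 118 to 508 CPM in mutant LT-HSC, and 8 erythroid markers to 361 to 20700 CPM and 248 to 590 CPM. The 12 monocyte and macrophage markers summed to 26.9 to 417 CPM in control and 26.5 to 31.9 CPM in mutant LT-HSC, where Fcgr1 was at 0. The 9 basophil, mast cell and eosinophil markers summed to 11.5 to 912 CPM and 9.04 to 18.5 CPM, with Mcpt8, Prss34, Gzmb and Epx at 0 in mutants, and the 5 MPP3 markers to 23.7 to 899 CPM and 23 to 32.4 CPM. The 9 B and antibody-secreting markers summed to 24.2 to 303 CPM and 16.5 to 120 CPM, with Mzb1 at 0 in mutants. Other lists differed less. The 9 dendritic cell markers summed to 212 to 306 CPM in control and 224 to 248 CPM in mutant LT-HSC. The 7 T and NK cell markers summed to 7.99 to 11.3 CPM and 7.98 to 8.12 CPM, and 6 megakaryocyte markers to 139 to 196 CPM and 165 to 221 CPM. Without the 3 control libraries high in S100a8, the Irf8 difference was 0.09 in place of −2.96, that of Klf4 −0.23 in place of −0.74, that of Cebpb 3.19 in place of −1.56, that of Gfi1 0.49 in place of −1.17, and 0 members were called. With 1 control library left this fit takes its spread from the mutant libraries, and Cebpd and Cebpe did not pass its filter on low counts. Control LT-HSC replicate 4 had 0.845 CPM of Cebpd, above the mutant range of 0 to 0.343 CPM. Without that library, in turn, Irf8 (adjusted p = 0.0152) and Cebpd (adjusted p = 0.0155) were called. The part of RNA from such cells in these differences was not tested further.

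**Figure D3:**
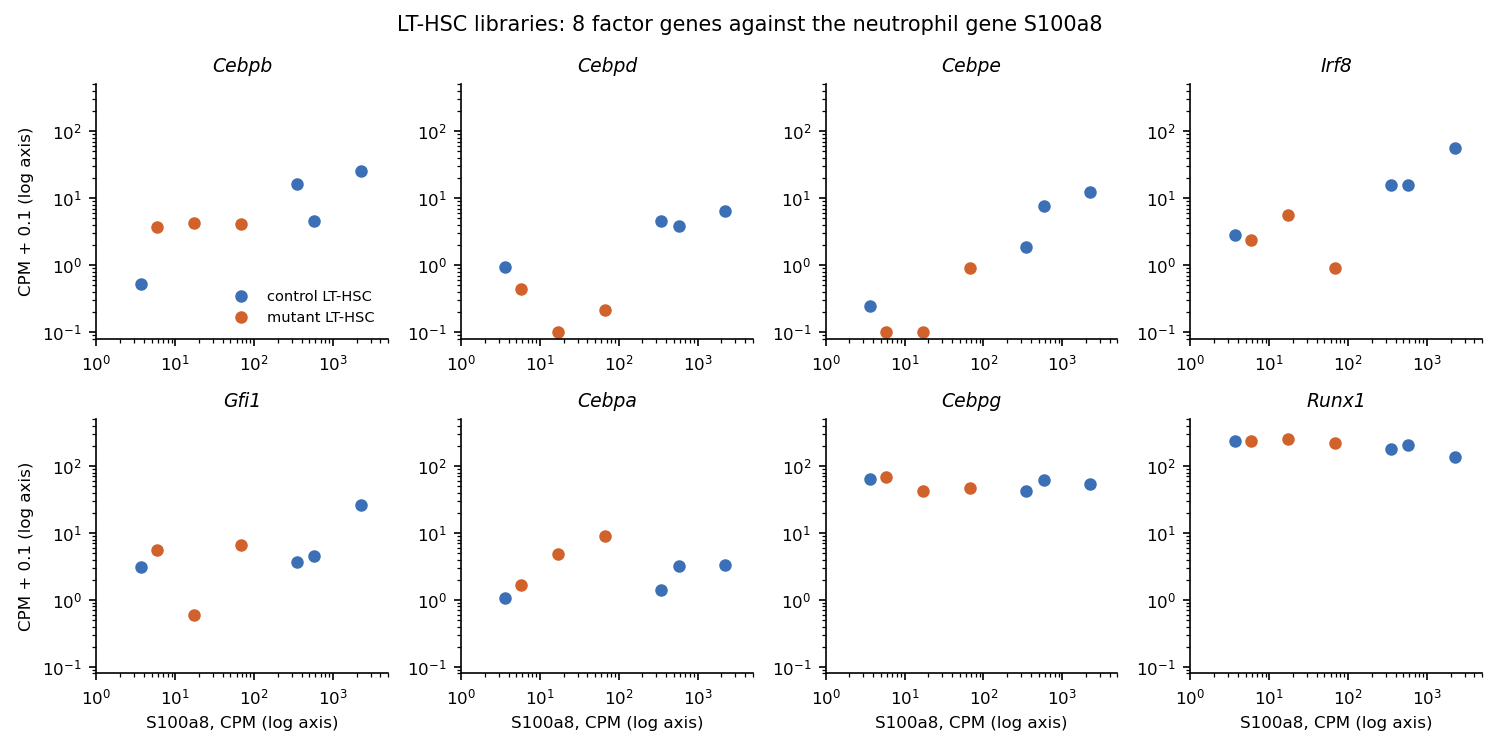
CPM plus 0.1 of 8 of the genes (log axis) against CPM of S100a8 (log axis) in the 7 LT-HSC libraries, with 1 point per library, blue for control and orange for mutant. In the control libraries Cebpa, Cebpb, Cebpd, Cebpe, Irf8 and Gfi1 are lowest at the S100a8 level of 3.66 CPM and highest at 2250 CPM. Cebpg and Runx1 span a narrow range.

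Outside LT-HSC the mutant and control groups overlapped for the members described next. In MPP4 Cebpb was 12 ± 15 CPM (SD, n = 4) in mutant and 2.66 ± 1.57 CPM (SD, n = 4) in control libraries (log2 difference 2.16, SE 0.819, adjusted p = 0.999, edgeR), with 1 mutant library at 33.9 CPM. It was the 1 member with an unadjusted p under 0.05 in MPP4, and ST-HSC and MPP3 had 0. In ST-HSC the Irf8 mean was 9.11 CPM in mutant and 35.5 CPM in control libraries (log2 difference −1.98, SE 1.22, adjusted p = 0.998, edgeR), and each group held 1 high library. In MPP3 Spi1 was 69.1 ± 11.7 CPM (SD, n = 4) in mutant and 51.3 ± 9.45 CPM (SD, n = 3) in control (log2 difference 0.43, SE 0.244, adjusted p = 1). In ST-HSC the log2 difference of Spi1 was −0.59 (SE 0.316, adjusted p = 0.998). Averaged over the populations, Irf8 had the lowest p of the members (mean difference −1.37, SE 0.457, adjusted p = 0.353, edgeR). Without the 3 LT-HSC libraries high in S100a8 it was −0.61 (adjusted p = 1, edgeR).

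Targets of C/EBP and PU.1 were described through a list of 20 genes, which encode granule proteins, cytokine receptors and surface proteins of granulocyte-monocyte progenitors. Between control MPP3 and control LT-HSC 5 of the 20 were called higher and 1 lower, against 1.39% of all genes, with a median log2 difference of 0.80 against −0.02 over all genes. Mpo, the myeloperoxidase of primary granules, was 6860 ± 1250 CPM (SD, n = 3) against 266 ± 329 CPM (SD, n = 4), a log2 difference of 4.70 (adjusted p = 0.0124). Elane, which encodes neutrophil elastase, differed by 3.96 (adjusted p = 0.0289), and Ms4a3, a membrane protein gene of granulocyte-monocyte progenitors, by 3.58 (adjusted p = 0.0453). The 1 lower gene was Lyz2, named after its value was seen, the lysozyme of mature myeloid cells (log2 difference −2.84, adjusted p = 0.0443), which was 1070 ± 881 CPM (SD, n = 4) in control LT-HSC. Without the 3 LT-HSC libraries high in S100a8 the median was 3.64. Those libraries were picked by a neutrophil gene, and the targets include genes of granule proteins. Leaving them out can raise the differences by the choice itself, and it leaves 1 LT-HSC library.

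In mutants 12 of 19 targets were called higher in MPP3 than in LT-HSC and none lower, against 2.95% of all genes, with a median log2 difference of 3.51 against 0.00 over all genes. Mpo was 6340 ± 2560 CPM (SD, n = 4) against 6.62 ± 4.35 CPM (SD, n = 3), and Elane was 693 ± 283 CPM (SD, n = 4) with 0 counts in all 3 mutant LT-HSC libraries. Ctsg, which encodes the granule protease cathepsin G, was 170 ± 43.3 CPM against 0.0763 ± 0.132 CPM. Between MPP3 and ST-HSC, 6 of 20 were called higher in controls and 11 of 19 in mutants, and none lower, against 1.75% and 4.27% of all genes, with medians of 2.68 and 2.57. Between MPP4 and MPP3, 5 of 20 were called lower in controls and 8 of 19 in mutants, and none higher, against 1.44% of all genes in each, with medians of −1.45 and −1.58. Elane differed by −7.72 (adjusted p = 0.00136) in controls and by −6.69 (adjusted p = 0.00113) in mutants.

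Between control MPP4 and control LT-HSC, 1 of 20 targets was called higher and 7 lower, against 4.51% of all genes, with a median of −0.61 against −0.01 over all genes. Cd14, Ms4a3 and Fcgr3 had the largest differences, and Cd14 was 0.0241 ± 0.0483 CPM (SD, n = 4) in MPP4 and 5.84 ± 5.65 CPM (SD, n = 4) in LT-HSC. Limma-voom called 1 higher and 1 lower. Without the 3 LT-HSC libraries high in S100a8 the median was 1.44. That choice of libraries by a neutrophil gene can itself raise the differences of such targets, and it leaves 1 LT-HSC library. The changed sign therefore does not decide what the differences with all libraries rest on. In mutants 7 of 19 were called higher in MPP4 than in LT-HSC and none lower, against 2.18% of all genes, with a median of 1.43 against 0.02. Mpo was 657 ± 174 CPM (SD, n = 4) against 6.62 ± 4.35 CPM (log2 difference 6.63, adjusted p = 2.6e-06), and Ctsg 29.5 ± 19.2 CPM against 0.0763 ± 0.132 CPM.

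Between mutant and control LT-HSC edgeR called 0 of 19 targets and 0% of all genes. Of the targets 14 had an unadjusted p under 0.05, against 8.51% of all genes. DESeq2 called 10 targets, all lower in mutants, and limma-voom 0. The number of all genes that DESeq2 called there is given above. All 19 fitted differences were negative, with a median of −2.95 against 0.00 over all 13922 genes. Without the 3 control libraries high in S100a8, 6 of the 18 targets tested were lower, with a median of 0.12. Those libraries were picked by a neutrophil gene, and the targets include genes of granule proteins. Leaving them out can therefore lower the control levels of targets by the choice itself, and it leaves a single control library. For these reasons the changed median does not decide what the differences with all libraries rest on, and their cause was not tested.

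**Figure D4:**
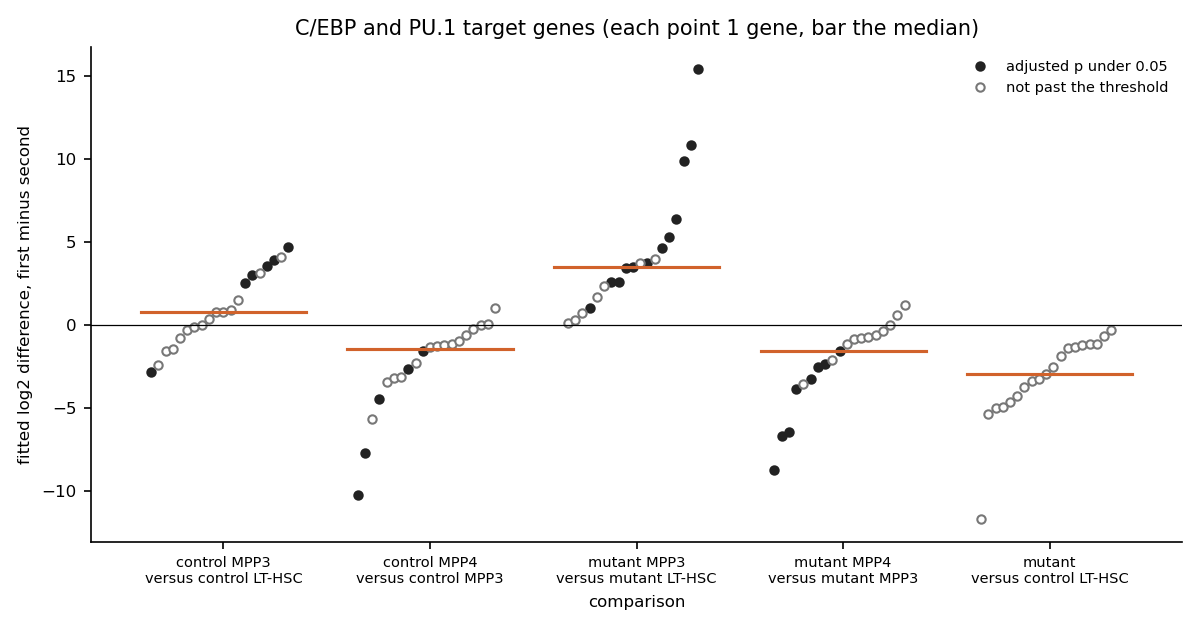
Fitted log2 differences of the C/EBP and PU.1 target genes in 5 comparisons, with 1 point per gene, filled where adjusted p is under 0.05, and an orange bar at the median. All points lie below 0 for mutant against control LT-HSC with all libraries, none of them is filled, and the median of −2.95 there was 0.12 without the 3 control libraries high in S100a8, while the differences of genes with 0 counts in a group depend on the prior count of the fit.

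The relatives and cofactors of the members, 13 genes, included the PU.1 paralog Spib and the IRF8 paralog Irf4. Between mutant MPP3 and mutant LT-HSC 2 were called higher and 1 lower of 13, against 2.95% of all genes, with a median of −0.03. Irf4 was 80.4 ± 46.7 CPM (SD, n = 4) against 4.72 ± 2.09 CPM (SD, n = 3), a log2 difference of 4.07 (adjusted p = 0.00601). Spib differed by 5.13 (adjusted p = 0.00346) and Gfi1b, the erythroid and megakaryocytic paralog of Gfi1, by −1.41 (adjusted p = 0.0297). Irf4 and Spib are also expressed in B and plasma cells, whose 9 markers summed to 1410 to 14900 CPM in mutant MPP3, and the part of such cells was not tested. Between control MPP4 and control LT-HSC 1 was called higher and 3 lower, Klf1, Gfi1b and Klf2 (log2 differences −4.98, −2.07 and −1.41), against 4.51% of all genes, and without the 3 libraries high in S100a8 none of the 13 was called, with 4 at an unadjusted p under 0.05.

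Factors of other lineages were called between MPP4 and LT-HSC in both genotypes. Of 9 such genes, 1 was called higher and 3 lower in control MPP4 and 1 higher and 4 lower in mutant MPP4, against 4.51% and 2.18% of all genes. Without the 3 control LT-HSC libraries high in S100a8 it was 0 higher and 2 lower in control MPP4. Gata1, the erythroid factor, was 0.36 ± 0.176 CPM (SD, n = 4) in control MPP4 and 14.8 ± 9.58 CPM (SD, n = 4) in control LT-HSC (log2 difference −5.32, adjusted p = 0.000157). Gata2, a stem cell and mast cell factor, differed by −2.36 (adjusted p = 0.000102) in controls and −2.76 (adjusted p = 3e-05) in mutants. Pax5, the B lineage factor, was called higher in mutant MPP3 than in mutant LT-HSC (log2 difference 4.54, adjusted p = 0.00945). Of 9 tested genes in the list of other granulocyte-monocyte factors, 1 was called lower in both MPP3 and MPP4 against LT-HSC in controls, where 1.39% and 4.51% of all genes were called. It was Egr1, an immediate early gene of the monocyte branch (log2 differences −1.29 and −0.95, adjusted p = 0.0177 and 0.0228), and neither was called without the 3 libraries high in S100a8. Zeb2, a repressor active in myeloid cells, was called higher in MPP3 than in ST-HSC, by 1.06 in controls (adjusted p = 0.0358) and 1.25 in mutants (adjusted p = 0.000572).

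On a scale of CPM per kilobase of exon, averaged over the 29 libraries, the members fell in the order Spi1 (17.2), Runx1 (16.5), Cebpg (9.08), Klf4 (7.43), Gfi1 (6.22), Cebpb (4.99), Irf8 (4.97), Cebpa (4.18), Cebpe (1.87) and Cebpd (0.717). Spi1 and Runx1 lay together at the top, Cebpb and Irf8 were neighbours whose libraries overlapped, and Cebpg was the highest of the C/EBP genes. The order holds for this mix of libraries and changed between groups: in mutant LT-HSC Runx1 was 19.8 against 9.82 for Spi1, and in control MPP3 Gfi1 was 9.99 against 4.47 for Klf4. By group means on this scale, Cebpa at 7.90 and Cebpg at 8.23 were close in control MPP3, whereas Cebpa stood at 0.819 and Cebpg at 9.86 in control LT-HSC.

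**Figure D5:**
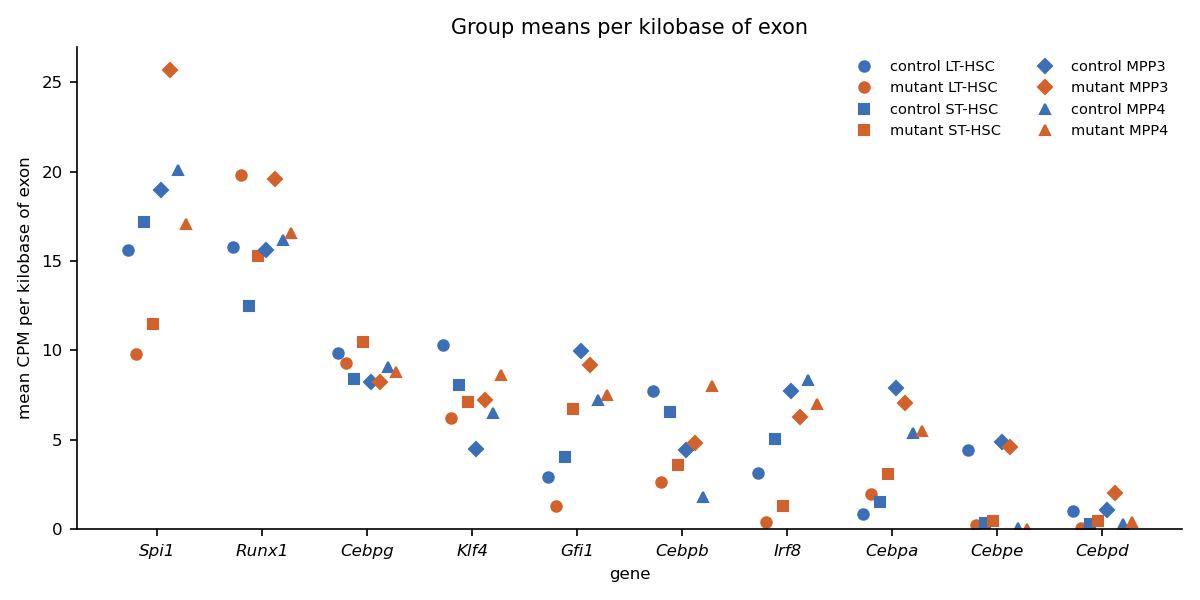
Mean CPM per kilobase of exon of each gene in the 8 groups, with 1 symbol per group (shape for the population, blue for control and orange for mutant), genes ordered by their mean. Spi1 spans 9.82 in mutant LT-HSC to 25.7 in mutant MPP3, whereas Cebpg stays between 8.21 and 10.5.

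Over the 8 group means of log2 CPM, some members varied together. Pearson's r was 0.88 for Cebpd and Cebpe, 0.87 for Spi1 and Irf8, 0.83 for Cebpa and Gfi1, and 0.82 for Irf8 and Gfi1. Cebpd and Cebpe had 3 counts or fewer in 7 and 15 libraries, so the first value may depend on the prior count. Cebpg and Spi1 went in opposite directions (r = −0.66), as did Cebpa and Klf4 (r = −0.65). The group means of Cebpg differed only 1.28-fold. Cebpa and Cebpg had r = −0.37. These values describe 8 points that share their libraries between genes and carry no test.

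The 8 group means were compared over 10778 genes of at least 5 CPM, a number that includes the members at that level. Cebpd and Cebpe, with means under 5 CPM, were not compared. Outside the members, the genes most like each member included the following. Cebpa was most like Mlec (r = 0.984), Cmtm7 and Wdr18, and genes most like Gfi1 included Cep164 and Tnfaip1. Irf8 was most like Il7r (r = 0.986), Itgal and Dtx4, and genes most like Spi1 included Nubp1 (r = 0.966) and Cd37. Over all 29 libraries r was 0.93 for Irf8 and Il7r and 0.75 for Cebpa and Mlec. Cebpb was most like Pde12 (r = 0.965, but −0.28 over the 29 libraries), Psen2 and Dqx1. Cebpg was most like Cdk11b (r = 0.964), Fez2 and 1700021F05Rik, Runx1 most like Rex1bd (r = 0.953), Akt2 and Supt6, and Klf4 most like Ccrl2 (r = 0.966), Gm12879 and Braf. With 8 points, 101 genes exceeded an r of 0.9 with Cebpa, 96 with Irf8 and 2 with Cebpb. Each of these counts includes the member itself.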

How the data were processed

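RNA was extracted with the RNeasy Micro kit and sequenced as polyA RNA, per the labels' protocols. The authors deposited 1 table of estimated counts per gene for all 29 libraries; the submitters' processing notes name Bowtie2 2.2.0 and RSEM 1.2.12, with edgeR 3.5.3, SAMtools 0.1.18 and the build GRCm38, and no roles. Strand in counting is not stated. Genotype and population came from titles and descriptions; the protocol text gives 3 mutant MPP3 samples, and all 4 listed were used. The deposited expected counts were rounded. CPM used TMM library sizes. Differences were fitted with edgeR 4.0.16 (quasi-likelihood, filterByExpr with a minimum count of 10, Benjamini-Hochberg over all genes tested) in R 4.3.3, separately for control populations, mutant populations, mutant against control within each population, and all libraries for the mean effect and its inequality. The method was tested on simulated data. Intervals and floors cover counting error only.

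The 10 genes and the lists were chosen with earlier results of these data known. Named list genes were up to 3 with the largest differences among those called, in comparisons where a member was called; likeness was Pearson's r over the 8 group means of log2 CPM (prior count 2), and some genes it names are not reported here. Alternatives were median-of-ratios scaling, DESeq2 1.42.0, limma-voom 3.58.1, other filters, no mitochondrial rRNA genes or Gm42418, a replicate block, a fit of all libraries, and leaving out libraries. Robust dispersions, a header-prefix covariate and the lists by other tools and without libraries were added after seeing the data. The 39 pairs of replicates differed by more than sampling noise (chi-square per degree of freedom 21.7 to 78.6).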

Additional observations from a re-analysis of the deposited data

Results flagged for a closer look

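Of 49 combinations of a gene and a group of 4 libraries, 6 had a library far from the other 3. Chance alone flags about 1 in 20 for independent, normally distributed values. These combinations share libraries and hold CPM values down to 0, so the count cannot be set against that rate. Irf8 in mutant ST-HSC replicate 2 was 28.2 CPM, against 1.86, 2.54 and 3.85 CPM in the other replicates. Cebpd in the same library was 5.2 CPM, against 0.282, 0.601 and 0.621 CPM. Gfi1 in control LT-HSC replicate 1, the library with the most S100a8, was 26.3 CPM, against 2.96, 3.64 and 4.39 CPM. Cebpa in control MPP4 replicate 2 was 24.8 CPM, against 10, 10.1 and 11.9 CPM. Runx1 in mutant MPP4 replicate 3 was 231 CPM, against 184, 191 and 192 CPM. Cebpe in control MPP4 replicate 2 was 0.193 CPM, which is 2 counts, against 0 in the other replicates; with 3 replicates at 0 any count would stand apart in this way, and 2 counts are under the limit of 3 that a count of 0 allows.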

How the results depend on the processing

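Depth limits Cebpd and Cebpe most, with 7 and 15 libraries at 3 counts or fewer. Of 787 alternative values for 43 differences of single members, 709 kept direction and side of the threshold, 39 were no longer called, 34 became called and 5 reversed. Without the 3 control LT-HSC libraries high in S100a8, the reversed differences were Cebpe in control ST-HSC against LT-HSC (1.46), Cebpb in control MPP4 against LT-HSC (2.61) and Irf8 in mutant against control LT-HSC (0.09), and 0 members were called in control MPP3 or MPP4 against LT-HSC. Irf8 in mutant ST-HSC against LT-HSC ranged from −0.06 to 2.51 when 1 library was left out, and Cebpe in mutant MPP4 against LT-HSC from −4.73 to 0.00, where both groups then held no count.

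DESeq2 called 2 members in control MPP3 against LT-HSC, 1 in control MPP4 against ST-HSC, 1 in mutant ST-HSC against LT-HSC, 6 in mutant MPP3 against LT-HSC, 2 in mutant MPP4 against LT-HSC, 2 in mutant MPP3 against ST-HSC, 1 in mutant MPP4 against ST-HSC and 2 in mutant against control LT-HSC. The shares of all genes it called in these comparisons were 3.74%, 4.06%, 1.18%, 5.92%, 3.91%, 7.92%, 4.89% and 2.10%. Limma-voom called 2 in control MPP3 against LT-HSC, 1 in control MPP4 against LT-HSC, 0 in control MPP4 against MPP3, 2 in mutant MPP3 against ST-HSC and 1 in mutant MPP4 against ST-HSC, with shares of 1.44%, 3.07%, 0.83%, 3.62% and 1.98%. In mutant MPP3 against LT-HSC limma-voom, no filter and the fit of all libraries each called 4, with shares of 3.89%, 2.46% and 3.42%. With no filter on low counts 2 were called in mutant MPP4 against LT-HSC, 2 in mutant MPP3 against ST-HSC and 1 in mutant MPP4 against ST-HSC, with shares of 1.65%, 3.36% and 1.73%. The fit of all libraries called 0 in control MPP3 against ST-HSC, and the header prefix as a covariate called 2 there, 2 in mutant MPP3 against ST-HSC and 1 in mutant MPP4 against ST-HSC (1.63%, 2.18%, 4.24% and 2.14% of genes).

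Leaving out 1 library gave 1 to 2 members in control MPP3 against LT-HSC, 1 to 3 in control MPP4 against LT-HSC, 0 to 1 in control MPP3 or MPP4 against ST-HSC and in control MPP4 against MPP3, 0 to 3 in mutant MPP3 against LT-HSC, 0 to 1 in mutant MPP4 against LT-HSC, ST-HSC or MPP3, 1 to 2 in mutant MPP3 against ST-HSC and 0 to 2 in mutant against control LT-HSC. The cause was not tested. The shares of all genes called in these fits are not given, so the counts do not set the members against other genes.

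Correlations of deviations between libraries with the same replicate number were weak. By description 6 of 39 same-number pairs were over 0.1, against 10 of 118 different-number pairs. By title 0 of 13 same-number pairs and 8 of 39 different-number pairs were. Such correlations cannot show whether libraries with the same number came from the same animal. With the replicate block 2 members were called in mutant MPP3 against ST-HSC and 1 in mutant MPP4 against ST-HSC by description number. The shares of all genes called in these 2 fits are not given, so the counts do not set the members against other genes. A block on the title number, whose 3 LT-HSC pairs all had negative correlations, called 3 in mutant against control LT-HSC, Irf8 (adjusted p = 0.000908, edgeR), Cebpe (0.0379) and Cebpd (0.043). The number of all genes that the title block called there is given below. With the description block Gfi1 in mutant MPP3 against LT-HSC had an adjusted p of 0.0524.

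Over all genes DESeq2 called 308 against 15 by edgeR in control ST-HSC against LT-HSC, 558 against 208 in control MPP3 against LT-HSC, 1061 against 673 in control MPP4 against LT-HSC, 746 against 262 in control MPP3 against ST-HSC, 606 against 223 in control MPP4 against ST-HSC, 469 against 215 in control MPP4 against MPP3, 874 against 436 in mutant MPP3 against LT-HSC, 1170 against 631 in mutant MPP3 against ST-HSC, 174 against 41 in mutant ST-HSC against LT-HSC, 578 against 322 in mutant MPP4 against LT-HSC, 722 against 331 in mutant MPP4 against ST-HSC, 480 against 212 in mutant MPP4 against MPP3, 111 against 4 for the mean mutant difference, and 292 against 0 in mutant against control LT-HSC. In the last the title block called 397, no filter 189 and the fit of all libraries 82. No filter also gave 174 in control ST-HSC and 359 in control MPP3 against LT-HSC, 396 and 359 in control MPP3 and MPP4 against ST-HSC, 350 in control MPP4 against MPP3, 74 for the mean mutant difference and 24 for its inequality. Control ST-HSC against LT-HSC had 8 with the block, 45 in the fit of all libraries and 67 with the prefix. The block gave 146 in control MPP3 against ST-HSC, and limma-voom 124 in control MPP4 against MPP3. Without the libraries high in S100a8, 3, 94 and 89 genes were called in control ST-HSC, MPP3 and MPP4 against LT-HSC.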
